A study of Mus musculus with 6 samples.

Results

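Genes of the proteasome were followed in RNA-seq of cultured mouse granulosa cells (GCs), the somatic cells that surround and nourish the oocyte in the ovarian follicle. They were taken by name, as every gene of the deposited table whose symbol starts with Psma to Psmg followed by a digit, with pseudogenes left out. This gave 49 of the 16300 genes in the table. Of these, 48 code for subunits, activators, an inhibitor or assembly factors of the proteasome. Psmc3ip, which codes for a factor of meiotic recombination, matched by name only. It has a role group of its own and is included wherever 49 genes are counted. The thymus-specific core subunit Psmb11 is not analysed here.

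The series compared primary GCs in control medium with GCs given 25 nM dihydrotestosterone (DHT), an androgen that cannot be aromatized to estrogen, for 24 h. There were 3 libraries per group, all from wild type C57BL/6J females of 8 to 9 weeks, and by the study's methods each library was made from a pool of the cells of several animals. One protocol field of the labels speaks of whole ovary as the source of RNA, and a free-text field names DHT for all 6 samples; the treatment characteristic, which separates 3 controls from 3 DHT samples, set the groups here.

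The proteasome degrades proteins that carry ubiquitin chains. Its barrel-shaped core, the 20S particle, is built of outer rings of alpha subunits (Psma genes) and inner rings of beta subunits (Psmb genes), and only some of the beta subunits cut peptide bonds. A regulatory cap, the 19S particle, binds the ends of the core. The cap has a base with a ring of ATPases that unfold the substrate (Psmc genes) and a lid that removes ubiquitin (most Psmd genes). After interferon exposure and in immune cells, catalytic subunits are exchanged for Psmb8, Psmb9 and Psmb10, which form the immunoproteasome and favour peptides for display on MHC class I molecules. In granulosa cells, as in other dividing and hormone-secreting cells, the proteasome removes cyclins, transcription factors and hormone receptors.

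The libraries held 36111177 to 41928585 reads counted on genes, and the 10 most abundant genes took 5.38% to 5.91% of them. Of the granulosa markers examined, Inha, Inhba and Cyp11a1 were abundant, Fshr was near 150 normalized counts in both groups (means 150.1 and 145), and Cyp19a1 is not analysed here. Cyp11a1 was called higher in DHT and Inha lower, and Foxl2 was called lower by limma (adjusted p 0.049) and edgeR but not by DESeq2. Markers of other cell types were also detected. The 9 leukocyte markers summed to 569 to 666 normalized counts in control and 453 to 738 in DHT. Among them Csf1r was called lower in DHT. Ptprc, at 5.94 to 11.1 in control and 12.0 to 15.7 in DHT, was higher in every DHT library but not called (log2 difference 0.72, SE 0.33, adjusted p 0.22 in limma). The 3 endothelial markers summed to 101 to 147 and 112 to 169. The 5 theca and stroma markers summed to 3500 to 4444 and 4016 to 4536, mostly Col1a1 and Col3a1. The 8 oocyte markers summed to 375 to 895 in control and 109 to 705 in DHT, and DHT replicate 2 was the lowest, with Zp3 and Oosp1 at 0. The part of these cells in the differences given here was not tested. In such bulk libraries fewer cells of a type and less RNA per cell cannot be told apart.

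At the level of single genes, 2 of the 49 passed the test between DHT and control, Psmd4 upward and Psmd5 downward, by 12.6% and 10.6% of their control means. Psmd4 codes for the cap subunit (Rpn10) that binds ubiquitin chains on incoming substrates. Psmd5 codes for a chaperone (S5b) that holds ATPases during assembly of the cap base. The sequences upstream of both genes are shown because they are the members that changed. They are the 250 bases before the RefSeq start in GRCm38.p6, written 5′ to 3′ on the strand of the gene, and capitals mark motifs that were searched. The Psmd4 window is chr3:95042615-95042864 on the minus strand, outside the annotated exons of the gene, and holds a reverse CCAAT box 95 bases and a reverse androgen half-site 51 bases before the start. The Psmd5 window is chr2:34870963-34871212 on the minus strand, of which 105 bases lie in an exon of a noncoding Psmd5 transcript, and none of the 4 motifs was found in this window.
Psmd4: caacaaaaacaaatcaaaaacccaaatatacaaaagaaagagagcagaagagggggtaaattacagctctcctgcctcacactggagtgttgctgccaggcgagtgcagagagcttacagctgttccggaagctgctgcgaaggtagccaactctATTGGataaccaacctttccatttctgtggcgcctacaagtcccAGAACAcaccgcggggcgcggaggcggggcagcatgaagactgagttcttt
Psmd5: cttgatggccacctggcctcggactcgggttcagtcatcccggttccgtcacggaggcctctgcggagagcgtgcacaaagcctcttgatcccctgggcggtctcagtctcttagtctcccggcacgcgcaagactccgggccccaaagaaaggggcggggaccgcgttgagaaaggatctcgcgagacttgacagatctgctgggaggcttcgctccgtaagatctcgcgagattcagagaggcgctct
The GC content of these windows was 50.8% for Psmd4 and 62.0% for Psmd5.

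The normalized counts of Psmd4 were 7503, 7983 and 8083 in control replicates 1 to 3 and 9029, 8740.1 and 8763 in DHT replicates 1 to 3. The lowest DHT library exceeded the highest control library. The difference on the log2 scale was 0.17 (SE 0.040, 95% interval 0.08 to 0.26, n = 3 per group) with an adjusted p of 0.025 in limma's test with Benjamini-Hochberg adjustment over 16292 genes. Psmd5 stood at 2963, 2844 and 2927 normalized counts in control and at 2582, 2675 and 2549.8 in DHT. Here every DHT library lay below every control library. The log2 difference was -0.16 (SE 0.039, 95% interval -0.25 to -0.07) with an adjusted p of 0.028 in the same limma test. Both calls were lost, with the direction kept, when control replicate 1, DHT replicate 1, DHT replicate 2 or DHT replicate 3 was left out, with adjusted p between 0.059 and 0.083 for Psmd4 and between 0.064 and 0.108 for Psmd5, and also without the intensity trend of limma (0.109 and 0.097). Neither gene has exons that overlap another annotated gene.

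Among all 16292 genes tested, 6.52% were called higher in DHT and 4.66% lower, against 1 of 49 proteasome genes in each direction. The proteasome genes are abundant, and 39 of them had a mean of at least 1000 normalized counts over the 6 libraries. Of the 7029 genes at that level, 9.2% were called higher and 6.35% lower, and the called proteasome genes were 1 of 39 each way. None of the 49 met both criteria of the study, significance at 0.05 after adjustment together with more than 1 log2 unit of change, which 1.31% of all genes met. At an unadjusted p of at most 0.05 there were 4 proteasome genes, the others being Psma2 and Psmc4, while 25.2% of all genes tested reached it. Quasi-likelihood tests in edgeR and Wald tests in DESeq2 on the recovered reads called the same 2 genes, and gave 0 that met both criteria.

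The precision of these values bounds what could have gone unseen. The 95% interval of the log2 difference stayed within 0.5 either way for 47 of the 49 genes and within 0.25 either way for 41, and it reached 1 for 0 of them. The median standard error of the 49 was 0.041, against 0.078 over all genes tested and 0.047 for the 7029 abundant genes. The median absolute log2 difference was 0.044 among the 49, 0.114 over all genes and 0.068 over those abundant genes. The median signed difference was 0.009 for the 49 and -0.005 for all genes, and 26 of the 49 were above 0. The 48 genes without Psmc3ip together took 0.529% ± 0.0089 (SD, n = 3) of all normalized counts in control and 0.527% ± 0.0082 in DHT.

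**Figure D1:**
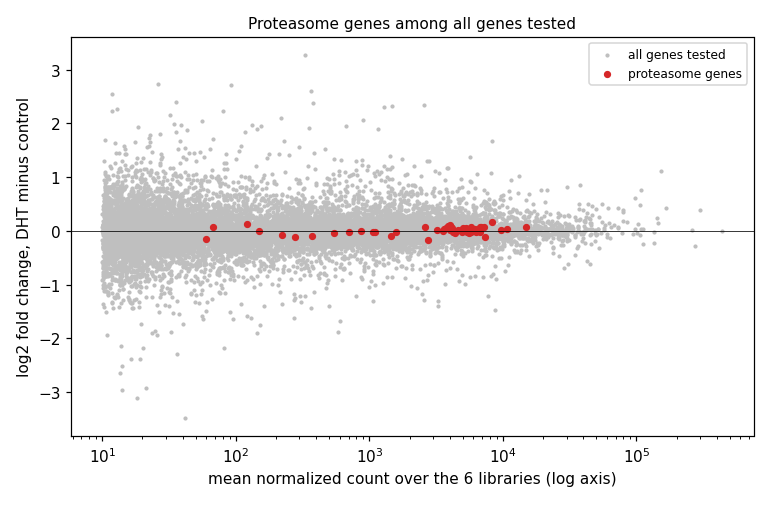
Log2 fold change of DHT minus control (vertical axis) against mean normalized count over the 6 libraries (horizontal axis, log scale) for all 16292 genes tested in grey and the 49 proteasome genes in red. The proteasome genes lie between -0.16 and 0.17, most of them at means of at least 1000.

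By role, the largest block with one direction was the ring of ATPases of the cap base, Psmc1 to Psmc6, whose 6 genes all had higher means in DHT although none was called. Psmc4 was measured at 3835, 4058 and 3792 normalized counts in control and 4208, 4169 and 4205 in DHT. It had the largest difference of the ring, 0.11 on the log2 scale (SE 0.038, 95% interval 0.02 to 0.19, adjusted p 0.12 in limma). The smallest was that of Psmc2, with 4884, 5059 and 5022 normalized counts in control and 5100.2, 5127 and 5198 in DHT, a log2 difference of 0.04 (SE 0.034). The other members of the ring lay between these. Psmc1 gave 6985, 7032 and 7078 in control against 7516, 7191 and 7501 in DHT. Psmc3 gave 5538, 5611 and 5667 against 5845, 5752 and 6079, and shares 8.25% of its exonic bases with Slc39a13 on the other strand. In both, the control libraries were close together and the DHT libraries more spread. Psmc5 gave 3897, 4008 and 3906 against 4068, 4127 and 4131. Psmc6 gave 6349, 6825 and 6915 against 7062, 7006 and 7052, with control replicate 1 well below the other two. In each of the 6 genes the lowest DHT library lay above the highest control library, often by a small margin. The differences ranged from 0.04 to 0.11 with a median of 0.07, and the adjusted p from 0.12 to 0.47.

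Of all 49 genes, 10 (20.4%) had every DHT library above every control library and 1 had every DHT library below, counts that became 7 and 2 with quantile normalization and 5 and 4 with scaling to total reads. The same held upward for 15.9% of all genes tested and for 19.6% of genes with a mean of at least 1000, of which the proteasome genes gave 10 of 39 (25.6%), and downward for 14.7% and 17%. Besides the ATPases and Psmd4, the 10 were Psmd3 and Psmd12 of the lid and the activator Psme4. The separation of the ATPases depended on how libraries were scaled. With the authors' size factors 6 of 6 did not overlap, with TMM scaling 6, with quantile normalization 4, and with scaling to the total reads of each library 3. The sign stayed positive for 6 of 6 under each of these scalings, with values from 0.01 to 0.08 under total-read scaling, where the median of all genes moved to -0.03.

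**Figure D2:**
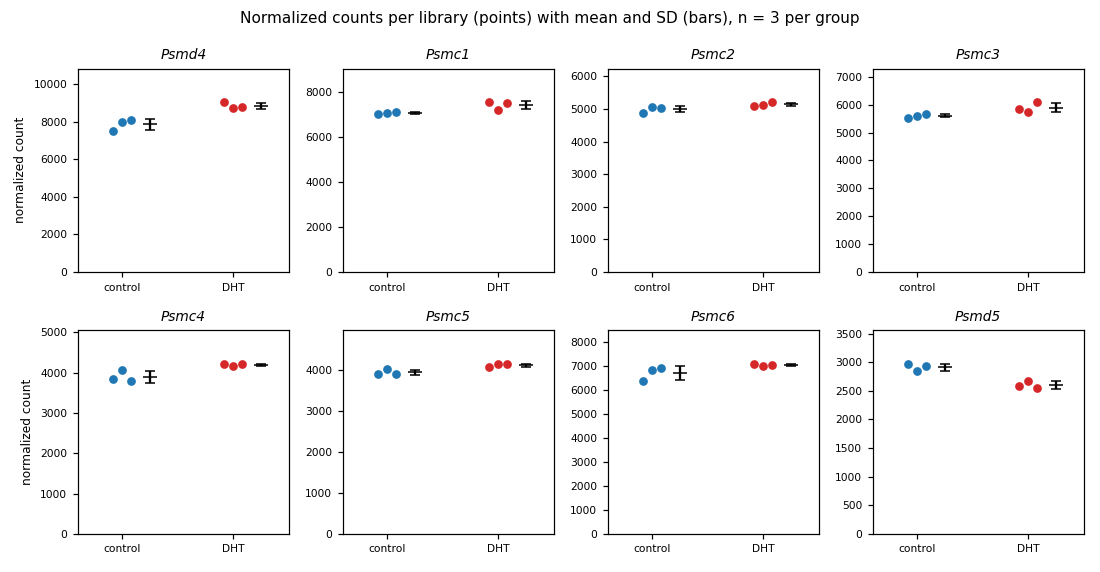
Normalized counts of Psmd4, Psmc1 to Psmc6 and Psmd5 in each library (points; control in blue, DHT in red; vertical axes start at 0), with the mean and SD of each group (black bars, n = 3). The DHT points lie above the control points in Psmd4 and in the 6 Psmc genes and below them in Psmd5.

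The remaining genes of the cap showed smaller or mixed differences. Psmd1 and Psmd2 code for the scaffold subunits of the base (Rpn2 and Rpn1). Psmd1 had 9372, 9741 and 9722 normalized counts in control and 9819, 9728 and 9518 in DHT, a log2 difference of 0.01 (SE 0.035) with overlapping groups. In Psmd2 the log2 difference was 0.07 (SE 0.041), also with overlap. Among the 8 lid genes 6 differences were positive and 2 negative. Psmd13, a structural lid subunit, had the highest, with 3811, 3857 and 3537 in control and 3849.6, 3903 and 4192 in DHT, or 0.09 (SE 0.049, adjusted p 0.28 in limma). Its groups overlapped by 1 library, and 10.1% of its exonic bases lie across from exons of Sirt3 on the other strand. Psmd11 had the lowest, with 4995, 4763 and 5120.2 in control and 4925, 4849 and 4835 in DHT, or -0.03 (SE 0.038). Psmd14, the deubiquitinase of the lid, differed by 0.05 (SE 0.038). Over the 17 cap subunits that matched by name, 15 differences were positive and the median was 0.07, and 12 were positive with scaling to total reads. Positive differences made up 48.8% of all genes tested and 50.5% of genes with a mean of at least 1000.

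In the constitutive 20S core no gene was called, and with the authors' size factors no gene separated the groups, while with scaling to total reads the DHT libraries of Psma2 lay below those of control. The 14 subunits had log2 differences from -0.12 (Psma2) to 0.05 (Psma1) with a median of -0.01, and 6 were positive. Their 95% intervals ran no lower than -0.22 and no higher than 0.20. The catalytic subunits are Psmb6 (caspase-like), Psmb7 (trypsin-like) and Psmb5 (chymotrypsin-like). Psmb5 had 3823, 3867 and 3425 normalized counts in control and 3552, 3798 and 4144 in DHT, and its log2 difference was 0.05 (SE 0.065). Psmb6 had 4471, 4486 and 4343 against 4475, 4073 and 4399.9, or -0.04 (SE 0.044). Psmb7 had 4654, 4674 and 4541 against 4596, 4550.0 and 4813, or 0.01 (SE 0.037), and 11.8% of its exonic bases overlap Nek6 on the other strand. For these 3 genes the groups overlapped and the differences lay within their standard errors.

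Psma2, an alpha subunit, had the largest difference among the 14 constitutive core genes. Its counts were 7870.0, 7865 and 7168 in control and 6960.4, 6889 and 7232 in DHT. The third control library fell among the DHT libraries. The difference was -0.12 (SE 0.046, 95% interval -0.22 to -0.02, adjusted p 0.14 in limma), and without control replicate 3 it was -0.16 with an adjusted p of 0.028, the only 1 of 17 alternatives that called it (adjusted p up to 0.353). Psma1 had 5060.0, 5278 and 5184 against 5339, 5225 and 5501, or 0.05 (SE 0.037). Psma8, the alpha subunit of the testis form, was near the low end of the genes, with 123, 95.7 and 129.7 normalized counts in control and 139, 133 and 107 in DHT, and its difference of 0.12 had an SE of 0.162.

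**Figure D3:**
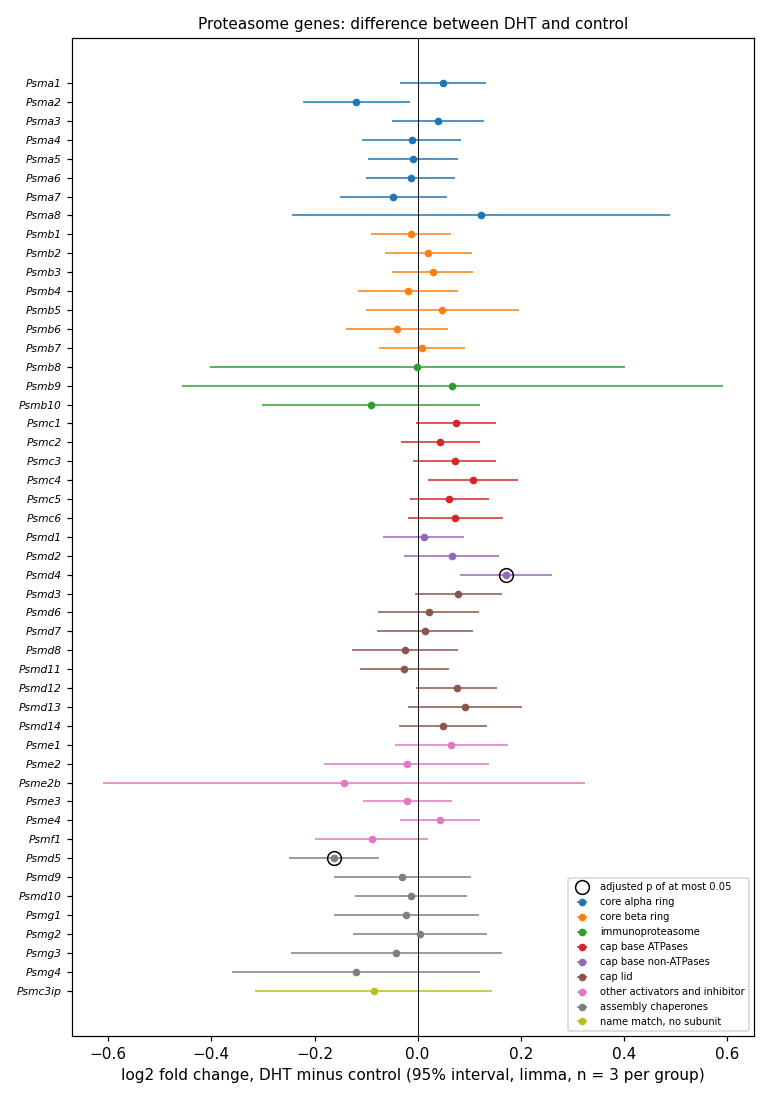
Log2 fold change of DHT minus control for each of the 49 genes (points) with its 95% interval from limma (horizontal lines, n = 3 per group), coloured by role, with circles around the genes with an adjusted p of at most 0.05. The circled genes are Psmd4 (0.17) and Psmd5 (-0.16), the 6 Psmc points lie between 0.04 and 0.11, and the widest intervals belong to Psmb8, Psmb9, Psma8 and Psme2b.

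Levels between genes were compared as reads per kilobase of the principal coding transcript, scaled to the total reads of the library (RPKM), a scale on which the gene with the longer transcript is not favoured. In control GCs the core subunits lay between 55.6 (Psma3) and 162 (Psma7), and the cap subunits between 45.3 (Psmd11) and 153 (Psmd4). Within the core, Psma7 stood at 162 ± 5.37 (SD, n = 3), above the next, Psmb6, at 144 ± 3.82, and the ranges of these neighbours did not meet. In the middle of the order the neighbours Psmb5 (107 ± 7.91), Psma6 (106 ± 3.18) and Psmb7 (104 ± 2.5) did not differ beyond their spread. The order depends on the length that is used: with all annotated exons of a gene as its length, Psma7 moved from rank 1 to rank 9 and Psmb5 from rank 7 to rank 1. Summed over the 14 core genes the level was 1474 ± 38.6 in control and 1439 ± 40.1 in DHT. Summed over the 17 cap genes it was 1449 ± 21.5 and 1482 ± 17.4. The mean level of the 6 ATPases divided by the mean level of the 14 core genes, a ratio within each library that scaling leaves unchanged, was 0.779, 0.793 and 0.816 in control and 0.846, 0.851 and 0.823 in DHT. The groups did not overlap in this ratio, which was formed after the values were seen and is given with no test.

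The immunoproteasome genes were expressed far below their constitutive counterparts. Psmb8, which takes the place of Psmb5, stood at a level per length of 2.43 ± 0.584 in control and 2.33 ± 0.164 in DHT. Psmb9, which takes the place of Psmb6, stood at 1.29 ± 0.395 and 1.28 ± 0.0754. Psmb10, which takes the place of Psmb7, stood at 7.62 ± 0.468 and 7.02 ± 0.688. As a share of its counterpart within each library, Psmb8 amounted to 2.25% ± 0.40 of Psmb5 in control and 2.15% ± 0.12 in DHT, Psmb9 to 0.885% ± 0.25 and 0.929% ± 0.10 of Psmb6, and Psmb10 to 7.34% ± 0.30 and 6.87% ± 0.59 of Psmb7 (SD, n = 3). With all annotated exons as the length the control shares were 1.08%, 0.767% and 16.7%, so their size depends on the transcript model while their order does not. Part of the exons of Psmb9 (5.79%) lies across from Tap1, and 14.7% of those of Psmb8 across from Gm20496.

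No difference between DHT and control was detected in these 3 genes at this depth. Psmb8 had 169, 176 and 111 normalized counts in control and 136, 157 and 155 in DHT, a log2 difference of -0.0004 (SE 0.178, 95% interval -0.40 to 0.40). Psmb9 had 83.1, 72.5 and 44.5 against 62.6, 70.9 and 69.6, or 0.07 (SE 0.232, 95% interval -0.46 to 0.59). Psmb10 had 404, 384 and 364 against 322, 365 and 397, or -0.09 (SE 0.093, 95% interval -0.30 to 0.12). Control replicate 3 was the lowest of the 6 libraries for Psmb8 and Psmb9, and the sign of the difference in both genes turned with the library left out, from -0.21 without control replicate 3 to 0.12 without control replicate 2 in Psmb8, and from -0.20 without control replicate 3 to 0.25 without control replicate 1 in Psmb9. Tap2, a subunit of the peptide transporter whose gene neighbours Psmb8 on chromosome 17, was lowest in the same library, with 1660, 1556 and 1205 normalized counts in control and 1387, 1549 and 1556 in DHT.

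**Figure D4:**
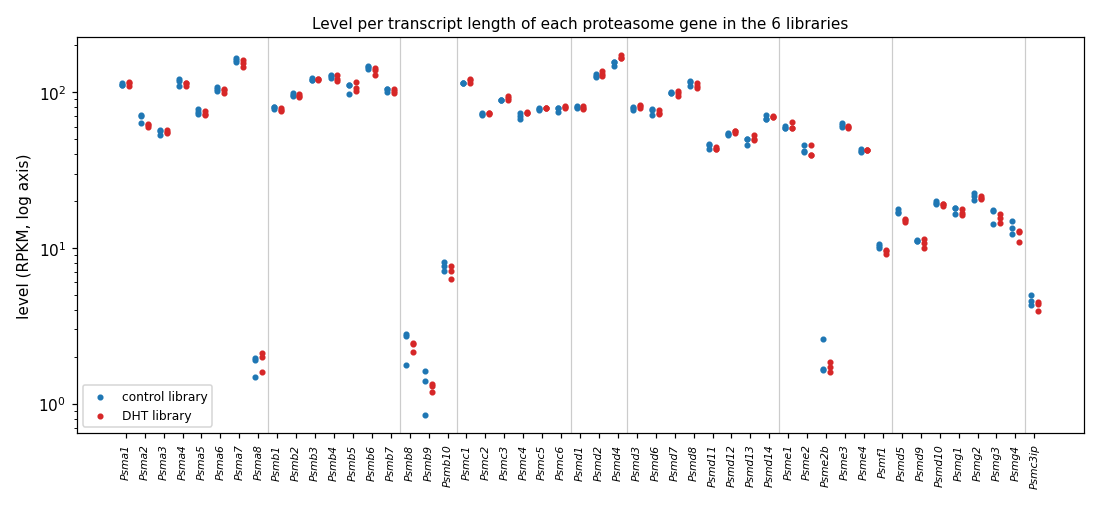
Level of each proteasome gene in RPKM of its principal transcript (vertical log axis) in the 3 control libraries (blue) and 3 DHT libraries (red), with grey lines between the role groups. The control means of the core and cap genes lie between 45.3 and 162, those of the assembly chaperones between 11.1 and 21.4, and those of Psma8, Psmb8, Psmb9 and Psme2b between 1.29 and 2.43.

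Of the alternative activators, which open the core without ATP, none was called. Psme1 and Psme2 form the interferon-inducible ring PA28 alpha-beta. Psme1 had 2504, 2578 and 2536 normalized counts in control and 2543, 2595 and 2841 in DHT, or 0.07 on the log2 scale (SE 0.048). Psme2 had 1683, 1531 and 1558 against 1476, 1491 and 1747, or -0.02 (SE 0.071). In both genes DHT replicate 3 was the highest library. Psme3, the nuclear PA28 gamma, had 6284, 6535 and 6162 against 6075, 6382 and 6264, or -0.02 (SE 0.038), and Psme4, the large activator PA200, had 10241, 10762 and 10513 against 10818, 10827 and 10819.6, or 0.04 (SE 0.034, adjusted p 0.49 in limma). The groups of Psme4 did not overlap, by a margin that was small beside the spread of the control libraries. Psme2b, an intronless copy of Psme2, had 83.1, 53.9 and 53.7 normalized counts in control and 55.8, 52.4 and 60.9 in DHT, or -0.14 (SE 0.206), and as a near-identical copy its reads may be uncertain. Psmf1, the inhibitor PI31, had 1447, 1497 and 1576 against 1418, 1451 and 1378, or -0.09 (SE 0.048, adjusted p 0.29 in limma), with 1 DHT library within the control range.

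The 7 assembly chaperones lay at 11.1 (Psmd9) to 21.4 (Psmg2) RPKM in control, below every constitutive subunit of the core and cap. Of their differences 6 were negative, but Psmd5 was the only one called. The cap chaperones Psmd9 (p27) and Psmd10 (gankyrin) differed by -0.03 (SE 0.059) and -0.01 (SE 0.048), and 25.5% of the exonic bases of Psmd9 overlap Gm26745 on the other strand. The core chaperones ran from -0.12 (Psmg4, SE 0.106) to 0.005 (Psmg2, SE 0.057). Psmg4 had 285, 317 and 265 normalized counts in control and 237, 283 and 279 in DHT, and Psmg2 had 869, 825 and 922 against 864, 861 and 898. The groups overlapped in both. Psmc3ip, the name match that is no subunit, differed by -0.09 (SE 0.102).

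The libraries differed little in their proteasome genes as a whole. The median deviation of the 48 genes from their own mean lay between -0.03 and 0.01 on the log2 scale in the control libraries and between -0.01 and 0.04 in the DHT libraries. DHT replicate 3 was the highest library for 16 of the 48 genes, and control replicate 1 was the lowest for 16. Without DHT replicate 3 the median difference of the 49 was -0.02 and 21 were positive, and without DHT replicate 2 it was 0.02 and 34 were positive, so the sign of the median rested on single libraries.

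Genes that work with the proteasome gave a mixed picture. Of 19 partners outside the name rule (substrate receptors, shuttle factors, deubiquitinases, assembly factors and unfoldases), 0 were called higher and 1 lower. Of all genes tested, 6.52% were called higher and 4.66% lower. The largest positive difference was that of Zfand5, a proteasome-binding factor, at 0.28 (SE 0.083, adjusted p 0.066 in limma). Adrm1, another ubiquitin receptor of the cap base, gave 3886, 4080 and 3932 against 4274, 4294 and 4353, with every DHT library above control. Its log2 difference was 0.12 (SE 0.036) with an adjusted p of 0.066 in limma. It is named for its place beside Psmd4 after its values were seen. Sem1, a further cap subunit outside the name rule, differed by -0.04 (SE 0.074). The median difference over the 19 was 0.004. Of 6 genes for ubiquitin and its activating enzymes, 0 were called by limma. At an unadjusted p of at most 0.05, limma gave 3 partners higher and 2 lower and 1 ubiquitin gene higher, beside 25.2% of all genes in either direction. DESeq2 called 1 partner higher, 2 lower and 1 ubiquitin gene higher, and edgeR called the same numbers as limma.

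Among 14 regulators of proteasome genes, 2 were called higher and 1 lower, with a median of 0.03. The shares called higher and lower were 6.52% and 4.66% of all genes tested, and 9.2% and 6.35% of genes with a mean of at least 1000. Nfe2l1 codes for NRF1, the factor that restores proteasome gene expression when proteasome activity falls. It had 16595, 16361 and 16360.1 normalized counts in control and 17555, 18365 and 18287 in DHT, a log2 difference of 0.14 (SE 0.036, adjusted p 0.041 in limma). This call held under 7 of 17 alternatives. It was lost when any 1 library was left out (adjusted p 0.051 to 0.178), with scaling to total reads (0.077), with quantile normalization (0.061) and without the intensity trend (0.124). Mafk, a small MAF partner of this family, rose from 3868, 3732 and 4481 to 5091, 5581 and 5500.1, or by 0.42 (SE 0.068, adjusted p 0.005 in limma, 0.058 without the intensity trend). Nfe2l2, which codes for the oxidative stress factor NRF2, fell from 8491, 8033 and 7809.5 to 6151, 6519 and 6415, or by 0.35 (SE 0.043, adjusted p 0.001 in limma). No library of one group overlapped the other in these 3 genes. Such separation was found upward in 15.9% and downward in 14.7% of all genes tested. The proteasome genes themselves lay between -0.16 and 0.17 in the same libraries.

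Of 17 genes of class I antigen processing and interferon response, which immunoproteasome genes often accompany, 2 were called higher and 2 lower. Over all genes tested the shares were 6.52% higher and 4.66% lower. H2-K1, a class I heavy chain, had 1952, 1886 and 1983 normalized counts in control and 2652, 2873 and 2787 in DHT, a log2 difference of 0.51 (SE 0.044). H2-D1, also a heavy chain, went the other way, at -0.16 (SE 0.053, adjusted p 0.10 in limma), with every DHT library below every control library. H2-T23 differed by -0.02 (SE 0.104). Tapbp, the tapasin that loads peptides, had 2889, 2742 and 2938 against 3413, 3776 and 3609.8, or 0.33 (SE 0.048). Irf1, an interferon regulatory factor, fell by 0.39 (SE 0.092), from 364 ± 27.2 to 277 ± 19.9 (SD, n = 3). The limma adjusted p was 0.003 for Tapbp and 0.027 for Irf1. The call of Irf1 was lost in 4 of 6 fits that left out 1 library, those without control replicate 2, DHT replicate 1, DHT replicate 2 or DHT replicate 3, with adjusted p up to 0.089, and without the intensity trend (0.063), and held under 11 of all 17 alternatives. The transporter genes Tap1 and Tap2 differed by -0.03 (SE 0.074) and 0.03 (SE 0.108).

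Windows of 250 bases before the RefSeq start were searched on both strands for 4 motifs, with 44 windows for 41 of the 49 genes. The core of the antioxidant response element, to which NRF1 and NRF2 bind (TGACNNNGC), was present in 5 of the 44 windows (11.4%), those of Psmb5, Psmb6, Psmc6, Psmd12 and Psmd9, against 10.2% of all 32851 windows. The CCAAT box of NF-Y was present in 14 (31.8%), among them that of Psmc3ip, against 33.8%. The gamma interferon activation site TTCNNNGAA was present in 2 (4.55%), among them that of Psmb8, against 7.02%. The half-site of the androgen response element (TGTTCT) was present in 7 (15.9%), those of Psmb5, Psmc4, Psmc5, Psmd4, Psme2b, Psmg1 and Psmg4, against 16.1%. The shares in proteasome windows were thus near those in all windows of the same length, and a match of these short letters is a description of the sequence only.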

How the data were processed

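RNA was measured in 6 libraries, 3 per group. According to the methods and the processing notes, the authors trimmed paired reads with Trimmomatic 0.36, aligned them to GRCm38 with STAR 2.5.2b and counted unique exon reads with featureCounts of Subread 1.5.2. The strand setting is not given in the sources used here, so reads of overlapping genes on opposite strands cannot be told apart. Each deposited signal value is a normalized count, made by the authors by dividing reads by a library size factor from DESeq2. The deposited table also holds a log2 fold change, p-value and adjusted p-value of the authors' own comparison, and a second table holds a subset of its genes. Neither was used. All values (100%, tolerance 0.001) were whole multiples of one step per library, which gave back the reads.

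Because the values are not raw counts, the main test was limma 3.58.1 (R 4.3.3) with an intensity trend on log2(value + 1), over the 16292 genes that averaged 10 or more, with Benjamini-Hochberg adjustment and no block. All 49 genes passed this filter. The pseudocount understates changes of low genes. The threshold for a call was 0.05 after adjustment. A test of a single gene by exact permutation of 3 against 3 libraries cannot give a p below 0.1. Alternatives were pseudocounts of 0.5 and 8, no filter, a filter at a mean of 50, TMM scaling, quantile normalization, no trend, the replicate number as a block, edgeR 4.0.16, DESeq2 1.42.0 and each library left out. Scaling to total reads, the alternatives for genes outside the name rule and levels by all annotated exons were added after seeing the data. The fits were tested on simulated data. Lengths and overlaps came from GENCODE M21, with the principal coding transcript as the length, and sequences from RefSeq on GRCm38.p6, which held windows for 41 of the 49 genes.

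The members, lists and tests were chosen with earlier results of these data known. Values in every library are given for the catalytic and immunoproteasome subunits, Psma8, the activators, the inhibitor, the called genes and the largest rise and fall of each role. The other ATPases, Psmd1, and Adrm1, Sem1, H2-D1, H2-T23, Tap1 and Tap2 were added after their values were seen. Genes of the other lists are named where called or at the largest rise or fall, except a few that are counted in their lists but not reported here by name.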

Additional observations from a re-analysis of the deposited data

How the results depend on the processing

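The calls of Psmd4 (higher) and Psmd5 (lower) each held under 11 of 17 alternatives, and the sign under all 17. Without the intensity trend, and with the replicate block, 0 genes were called higher and 0 lower. For Psmd4 the adjusted p was then 0.109 and 0.100, for Psmd5 0.097 and 0.117. With 1 library left out the number called higher ranged from 0 to 1 and lower from 0 to 2. The 2 lower without control replicate 3 were Psmd5 and Psma2. Over these 6 fits the adjusted p ranged from 0.020 to 0.083 for Psmd4 and from 0.045 to 0.108 for Psmd5. Across all genes 1823 were called, against 804 without the trend, 990 with the block, and 931 to 2094 with 1 library left out. The cause of these losses was not tested. Same-number libraries did not deviate together (correlations of deviations 0.0058, 0.067 and -0.24, those of different numbers averaging 0.028). Whether they came from the same pools of cells is not stated in the sources used here. With total-read scaling both genes were called, 7 uncalled genes changed sign and 19 of 49 were positive. The median of the 49 lay between -0.02 and 0.02 over the alternatives. The 6 ATPases were positive under each of the 17 alternatives (0.01 to 0.14), with a lowest adjusted p of 0.070. No fit gave a gene past both thresholds of the study. With all annotated exons as the length, Psmb8 was 1.08% of Psmb5 and Psmb10 16.7% of Psmb7. With 3 libraries per group and a median standard error of 0.041, differences as large as that of Psma2 (-0.12) or Psmc4 (0.11) were not called. The median standard error was 0.104 in the 10 genes with a mean under 1000 normalized counts and 0.039 in the other 39. The part of depth in this was not tested. The replicate block also ended the calls of Nfe2l1 and Irf1 (adjusted p 0.146 and 0.073).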
